A study of Mus musculus with 20 samples.

Results

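The kinesin genes of the mouse ovary were taken as every annotated gene whose symbol is Kif followed by a number and an optional letter, which gave 38 of the 49585 genes counted. The rule uses no measured value. The family was proposed with results of these data already known, and Kif5a was named with it. Kif5a is therefore described by its values, with no test. Kinesins are motor proteins that use ATP to move along microtubules or to take them apart at their ends. Some carry vesicles, mitochondria and RNA along axons and other long cell processes, some build and position the mitotic and meiotic spindle and complete cytokinesis, and some work in cilia and flagella. Kif5a, Kif5b and Kif5c encode the heavy chains of kinesin-1. Kif5b is the form made in most tissues, while Kif5a is best known from neurons.

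RNA was sequenced from ovaries of B6D2F1 mice in 20 libraries. Ovaries were taken at embryonic day 18.5 (E18.5) or on the day of birth (postnatal day 0, P0). FIGLA is a basic helix-loop-helix factor and LHX8 a LIM homeodomain factor, both of oocytes. At E18.5 there were 4 libraries from Figla knockout ovaries and 4 from control ovaries. At P0 there were 3 of each for Figla and 3 of each for Lhx8. The genotype field gives the controls as Figla+/- and Lhx8+/-, and the Lhx8 library names call their controls WT, so they are called controls here. The same field gives the knockouts as Figla-/- and Lhx8-/- and names no Cre driver. Nothing in the labels says which ovaries came from separate animals, so p-values measure only the spread between these samples.

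The labels conflict. The genotype in the title differs from the one in the library name for 6 of the 14 libraries in the Figla set and for all 6 in the Lhx8 set. The groups here follow the library names. Figla itself was at 32.7, 36.7 and 41.4 CPM (a count divided by its library's TMM-scaled total) in the P0 libraries labelled control and at 0.182, 0.635 and 0.30 in those labelled knockout. In the Lhx8 set, Lhx8 was at 93.6, 103 and 90.2 CPM in the libraries labelled control and at 16.9, 30.4 and 23.6 in those labelled knockout. The part of Lhx8 that was deleted is not given in the sources used here, so a tag from the end of the transcript may not check that label. Grouping the Lhx8 libraries by their titles instead would reverse the sign of every Lhx8 difference below.

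Totals ran from 5583392 to 13408022 counts in the Figla set and from 8297204 to 9978350 in the Lhx8 set. At E18.5, control replicates 1 and 2 differed by little more than counting noise, as did knockout replicates 1 and 2 (chi-square per degree of freedom 1.12 to 1.32, against 6.62 to 62.3 for 22 other pairs). Each pair was summed and counted as 1 sample, so every group had n = 3. E18.5 control replicate 3, the shallowest library, stood apart: Nobox, an oocyte transcription factor gene, was at 2.06 CPM there and at 73.6 and 108 in the other controls. Oocyte marker genes showed that the tissue held oocytes. Their summed level was 1795 to 3307 CPM in P0 controls of the Figla set and 483 to 594 in the knockouts, and 2110 to 2333 CPM in Lhx8 controls and 610 to 1147 in Lhx8 knockouts. In bulk ovary, fewer cells of a type and less RNA per cell cannot be told apart.

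Of the 38 kinesin genes, 35 had enough counts to be tested in the Figla set. Kif12, Kif28 and Kif2b had 12, 14 and 2 counts over the whole set and were not tested. In the Lhx8 set 33 were tested, and Kif19a and Kif3c were also too low there, with 18 and 25 counts. Differences are log2 fold changes from edgeR's quasi-likelihood test, given with their standard error (SE). A gene passed when its Benjamini-Hochberg adjusted p, taken over all genes tested, was under 0.05.

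Outside Kif5a, 4 kinesin genes passed the test in the same direction in both knockouts at P0, and all 4 were lower: Kif14, Kif4, Kif16b and Kif21a. RefSeq start-site windows (GRCm38.p6) were available for 31 of the 38 genes. Basic helix-loop-helix factors as a class bind E-boxes, and whether any acts on these genes was not tested. The upstream sequence of 3 of these genes is shown here, cut before the first exonic base, 5′ to 3′ on the gene's strand. The window of Kif4 is exonic and is not shown, and it held 0 E-boxes. Capitals mark each E-box, CANNTG, which reads as an E-box on both strands. The Kif14 window lies inside the gene as the deposited annotation draws it, and the windows of Kif16b and Kif21a lie before the gene.
Kif14 (chr1:136467598-136467847, plus strand): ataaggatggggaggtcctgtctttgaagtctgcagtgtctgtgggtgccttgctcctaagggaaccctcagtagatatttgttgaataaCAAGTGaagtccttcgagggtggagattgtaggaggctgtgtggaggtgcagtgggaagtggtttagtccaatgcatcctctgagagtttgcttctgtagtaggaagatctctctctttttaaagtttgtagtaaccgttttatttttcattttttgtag
Kif16b (chr2:142901532-142901714, minus strand): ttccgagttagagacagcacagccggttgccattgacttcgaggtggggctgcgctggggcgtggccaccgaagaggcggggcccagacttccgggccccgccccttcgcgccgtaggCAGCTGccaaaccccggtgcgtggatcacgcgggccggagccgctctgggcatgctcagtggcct
Kif21a (chr15:91049952-91050201, minus strand): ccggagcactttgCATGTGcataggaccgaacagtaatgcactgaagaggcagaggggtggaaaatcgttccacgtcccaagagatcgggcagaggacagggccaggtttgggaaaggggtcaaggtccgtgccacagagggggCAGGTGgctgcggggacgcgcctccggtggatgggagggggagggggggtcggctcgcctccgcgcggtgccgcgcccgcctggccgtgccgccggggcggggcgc
Within the bases shown, Kif14 had 1 E-box, Kif16b had 1 and Kif21a had 2. An E-box was common everywhere: 66.2% of 32851 windows in the genome table held at least 1, and 17 of 35 windows of kinesin genes did (48.6%; some genes have more than 1 window). The homeodomain core TAATTA was in 4.84% of all windows and in 1 of the 35. These matches describe letters in the window and say nothing about binding.

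Kif5a (ENSMUSG00000074657, chr10:127225696-127263363, minus strand) was far higher in both knockouts at P0. It stood at 5.42, 3.4 and 2.81 CPM in the 3 Figla controls and at 29.1, 30.0 and 26.6 CPM in the 3 Figla knockouts. Every knockout sample was above every control, and the knockouts lay close together. The log2 fold change was 2.88 ± 0.23 (SE), a 7.36-fold difference. The Lhx8 libraries were made with another kit and from other ovaries, and there it was at 2.29, 2.32 and 2.47 CPM in controls and at 8.85, 8.76 and 11.9 CPM in knockouts. The groups were again apart, with a log2 fold change of 2.05 ± 0.28 (SE). Kif5a rested on 1738 counts over the Figla set and 339 over the Lhx8 set.

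Before birth the picture for Kif5a was mixed. At E18.5 the controls were at 6.82, 4.45 and 7.25 CPM (replicates 1-2, 3 and 4) and the Figla knockouts at 12.7, 5.18 and 19.6. Knockout replicate 3 lay among the controls, so the groups overlapped, while the other knockouts lay above all controls. The log2 fold change was 1.02 ± 0.45 (SE). Without knockout replicate 3 it was 1.38 ± 0.31, and without both samples numbered 3 it was 1.2 ± 0.31. Without knockout replicate 4, the highest sample, it was 0.56 ± 0.43.

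The other kinesin-1 heavy chain genes did not share this pattern. Kif5b, the broadly made form, was at 162, 198 and 179 CPM in Figla controls at P0 and at 213, 220 and 217 in knockouts. The difference of 0.27 ± 0.10 on the log2 scale did not pass (edgeR adjusted p = 0.0895), although the groups did not overlap. Lhx8 libraries had Kif5b at 499, 489 and 524 CPM in controls and 543, 564 and 622 in knockouts, a log2 difference of 0.19 ± 0.12 (edgeR adjusted p = 0.317). Kif5c, another form enriched in neurons, went the other way from Kif5a: it was at 21.7, 25.9 and 30.8 CPM in Figla controls and at 15.8, 18 and 18 in knockouts. Its log2 fold change of -0.60 ± 0.16 passed (edgeR adjusted p = 0.0291). Lhx8 libraries had Kif5c at 9.70, 8.12 and 10.3 CPM in controls and 5.44, 8.05 and 6.06 in knockouts, and the log2 fold change of -0.52 ± 0.25 did not pass (edgeR adjusted p = 0.211). The Figla call for Kif5c was lost without any of 5 of the 6 P0 samples, the exception being control replicate 1, with adjusted p from 0.0567 to 0.114.

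**Figure D1:**
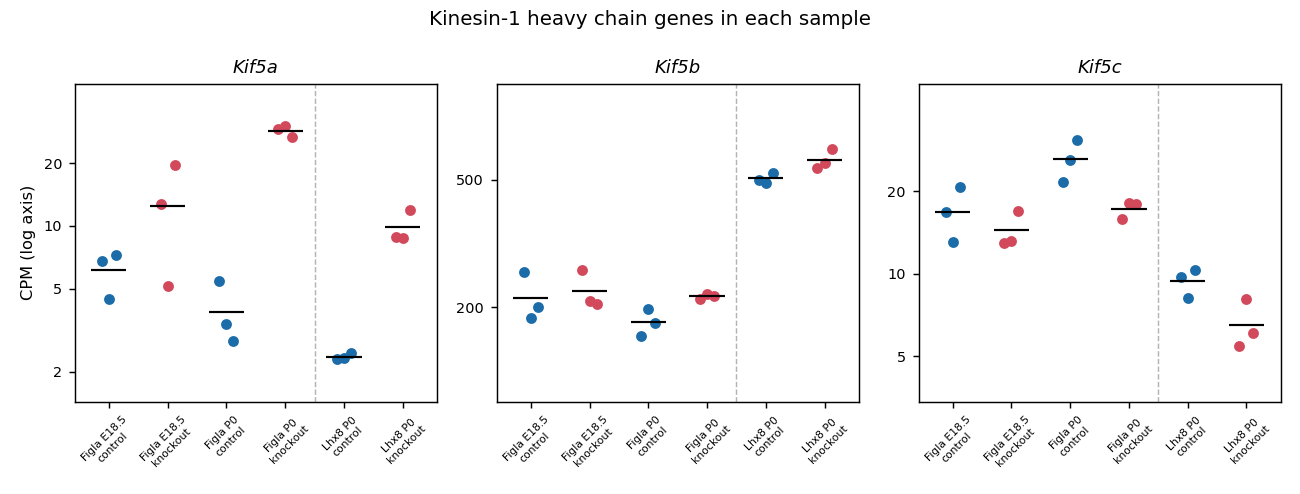
CPM (log axis) of the 3 kinesin-1 heavy chain genes in each sample, by group. Points are samples (near-identical E18.5 pairs summed), black lines are group means, and the dashed line separates the library kits, across which levels are not compared. Kif5a is at 26.6 to 30.0 CPM in Figla knockouts at P0 and at 2.81 to 5.42 in their controls.

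Levels of different genes were compared per length, as CPM divided by exon length in kilobases (RPKM), in the Figla set only. In P0 controls Kif5a was 34th of the 38 kinesin genes, at a mean of 0.615 ± 0.217 RPKM (SD, n = 3). In P0 knockouts it was 22nd, at 4.52 ± 0.28 RPKM. It then stood above Kif5c, which was at 2.42 ± 0.18 RPKM, but well below Kif5b, at 29.3 ± 0.52. The gap between Kif5a and Kif27, the gene just above it in the knockouts (4.62 ± 0.54), was smaller than their SDs. Kif3a, a kinesin-2 motor subunit of intraflagellar transport, headed the order in P0 controls at 29.2 ± 1.75 RPKM. Next came Kif16b at 24.9 ± 3.96, Kif5b at 24.3 ± 2.40 and Kif4 at 23.7 ± 6.71, whose order was within their spread. In P0 knockouts Kif5b came first, and Kif4 was at 6.02 ± 0.66 RPKM. In those controls 27 of 37 gaps between neighbours in the order were no larger than the larger SD of the pair.

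**Figure D2:**
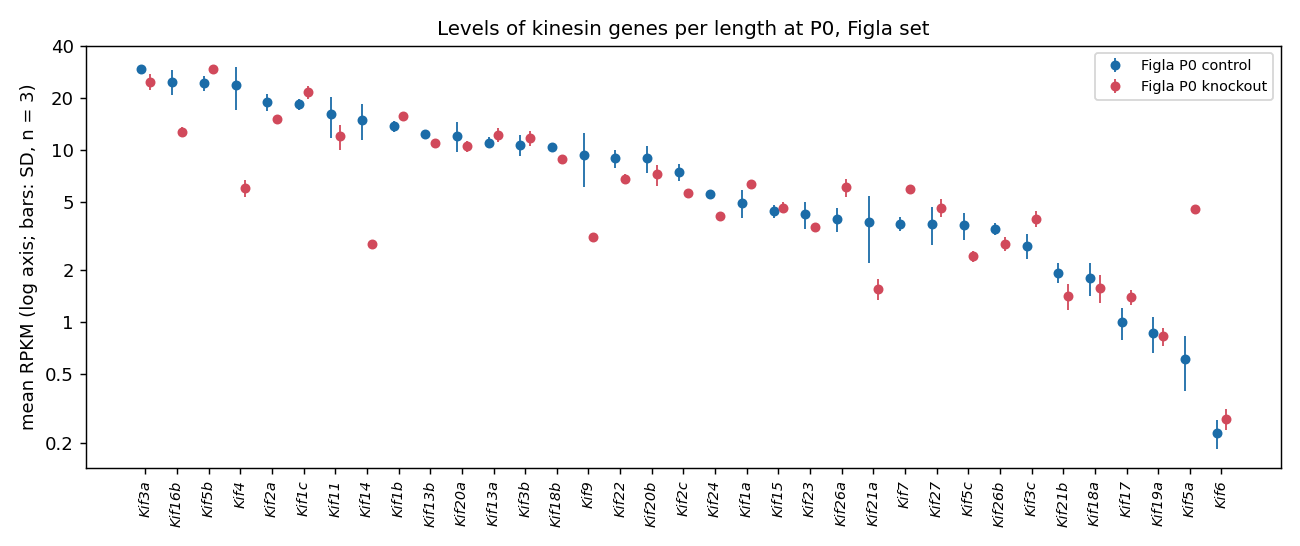
Mean RPKM (log axis) of the 35 tested kinesin genes in Figla controls and knockouts at P0, ordered by the control mean; bars are SD, n = 3. Kif5a rises from 0.615 to 4.52 RPKM, while Kif14 goes from 15 to 2.85 and Kif4 from 23.7 to 6.02.

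Kif5a is left out of every count of members that passed or did not overlap. Of the 34 other members tested at P0 in the Figla set, 10 passed: 3 higher and 7 lower. Over all 17321 genes 16.0% passed, with 5.12% higher and 10.9% lower. At an unadjusted p under 0.05 there were 19 members, beside 30.8% of genes. In 7 members every knockout was above every control, beside 15.2% of genes, and in 14 every knockout was below, beside 20.4%. The median log2 fold change was -0.21 over these members and 0.02 over all genes. For Lhx8, 6 of 32 members passed, all of them lower. There the background was 10.4% of 15274 genes, with 3.06% higher and 7.29% lower. At an unadjusted p under 0.05 there were 11 members, beside 27.8% of genes. Groups did not overlap for 2 higher members, beside 15.6% of genes, and for 12 lower ones, beside 18.1%. The medians were -0.28 for these members and 0.05 for all genes.

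**Figure D3:**
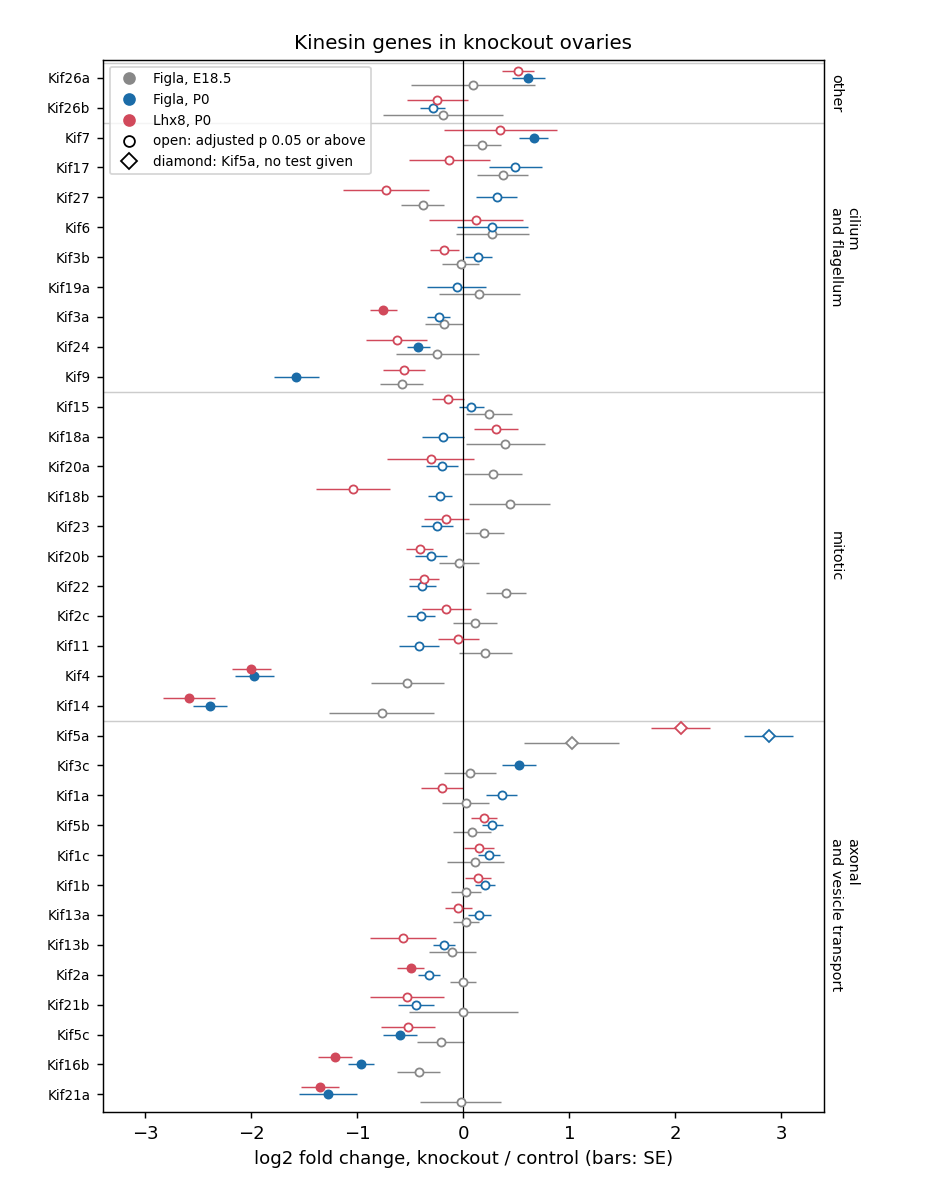
Log2 fold change (knockout over control; bars are SE) of each kinesin gene tested, grouped by known role and shown for Figla at E18.5, Figla at P0 and Lhx8 at P0. Filled circles passed at adjusted p under 0.05, open circles did not, and Kif5a is drawn as diamonds because no test is given for it. Kif14 and Kif4 lie near -2 and below in both P0 comparisons.

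Among the 11 kinesins of mitosis, 2 were lower in each knockout at P0, and the other 9 did not pass in either. Over all genes 10.9% were lower for Figla and 7.29% for Lhx8. Kif14 (ENSMUSG00000041498, chr1:136466343-136531511) is a kinesin-3 motor of the midbody needed to finish cytokinesis. It was at 123, 147 and 195 CPM in Figla controls at P0 and at 29.1, 28.7 and 30.8 in knockouts. The groups were well apart, with a log2 fold change of -2.39 ± 0.16 (edgeR adjusted p = 7.5e-06), a 5.24-fold lower level. Among Lhx8 libraries Kif14 was at 226, 195 and 187 CPM in controls and 22.7, 47.8 and 30.4 in knockouts. This was a log2 fold change of -2.59 ± 0.24 (edgeR adjusted p = 0.00014), with no overlap.

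Kif4 (ENSMUSG00000034311, chrX:100625737-100727214) is a chromokinesin that organises the central spindle with PRC1. It was at 107, 111 and 173 CPM in Figla controls at P0 and at 30.1, 37.3 and 32.1 in knockouts. The log2 fold change was -1.97 ± 0.18 (edgeR adjusted p = 6.4e-05). Among Lhx8 libraries Kif4 was at 67.3, 86.2 and 65.2 CPM in controls and at 16.4, 22.3 and 15.8 in knockouts, a log2 fold change of -2.0 ± 0.18 (edgeR adjusted p = 0.00013). Prc1 was also lower, by log2 fold changes of -1.96 in Figla and -2.0 in Lhx8 knockouts (edgeR adjusted p = 0.00018 and 0.00013). Kif4 shares 832 exonic bases with Pdzd11 on the other strand, where reads could not be counted for either gene. The processed copy Kif4-ps had at most 0.227 CPM in any sample. Pdzd11 differed by -0.38 in Figla and -0.27 in Lhx8 knockouts on the log2 scale and passed in neither (edgeR adjusted p = 0.0706 and 0.379).

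The remaining mitotic members did not pass, although Kif18b, Kif20b and Kif22 had groups that did not overlap in either set, as did Kif2c in the Figla set. In the Figla set at P0 their log2 fold changes ran from -0.42 (Kif11, the kinesin-5 motor that pushes spindle poles apart) to 0.08 (Kif15). The smallest adjusted p was 0.0613, for Kif22, a chromosome arm motor, at -0.39 ± 0.13. For Lhx8 they ran from -1.04 (Kif18b, adjusted p = 0.0837) to 0.31 (Kif18a), and the smallest adjusted p was 0.0726, for Kif20b. Kif11 itself was at 62.0, 69.0 and 101 CPM in Figla controls and at 46.6, 65.5 and 60.8 in knockouts, which overlapped. Kif20a, Kif20b and Kif23, the kinesin-6 motors of cytokinesis, differed by -0.20, -0.30 and -0.25 on the log2 scale.

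A list of 24 spindle and cytokinesis partners of these motors held 11 genes that were lower in Figla knockouts at P0 and none that were higher, beside 10.9% lower and 5.12% higher over all genes. Its median log2 fold change was -0.60, against 0.02 over all genes. Besides Prc1, the lower genes included Ect2, which activates RhoA at the cleavage furrow (-1.45), and Birc5 (-1.27) and Incenp (-1.09), subunits of the chromosomal passenger complex. For Lhx8, 9 of the 24 were lower and none higher, beside 7.29% and 3.06% of all genes, with a median of -0.35. Ect2, Birc5 and Incenp were again among them, at -1.30, -1.26 and -1.07. The oocyte marker sums given above fell with these genes in both knockouts, and their part in the result was not tested.

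Vesicle and axonal transport held 12 members besides Kif5a. Kif16b (ENSMUSG00000038844, chr2:142617474-142901531), a kinesin-3 motor that moves early endosomes, was at 197, 213 and 265 CPM in Figla controls at P0 and at 123, 109 and 113 in knockouts. The log2 fold change was -0.97 ± 0.12 (edgeR adjusted p = 0.00047). Among Lhx8 libraries Kif16b was at 55.3, 67.9 and 62.4 CPM in controls and 22.7, 27.3 and 30.3 in knockouts, a log2 fold change of -1.21 ± 0.16 (edgeR adjusted p = 0.0011). No knockout reached a control in either set.

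Kif21a (ENSMUSG00000022629, chr15:90933276-91049948), a kinesin-4 motor that slows microtubule growth, was at 15.1, 23.2 and 35.5 CPM in Figla controls at P0. The knockouts were at 9.2, 11.8 and 9.38 CPM, all below the controls, which were themselves widely spread. Its log2 fold change was -1.28 ± 0.27 (edgeR adjusted p = 0.0106), and the call was lost without knockout replicate 3 (edgeR adjusted p = 0.0524). Levels of Kif21a in Lhx8 libraries were 26.8, 34.6 and 33.7 CPM in controls and 11.6, 13.1 and 12.5 in knockouts. There the groups were tight, with a log2 fold change of -1.35 ± 0.18 (edgeR adjusted p = 0.0011).

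Kif3c, a kinesin-2 subunit of neurons, was at 19.0, 22.3 and 16.0 CPM in Figla controls at P0 and at 26.5, 30.4 and 25.1 in knockouts. Its log2 fold change of 0.52 ± 0.16 passed narrowly (edgeR adjusted p = 0.0485). The call was lost on leaving out any of 5 of the 6 P0 samples, all but control replicate 2, with adjusted p from 0.0881 to 0.178. Kif3c shares 2617 exonic bases with 1110002L01Rik on the other strand, so part of its transcript could not be counted for either gene. Kif2a, a kinesin-13 that shortens microtubules and prunes axon branches, passed in the Lhx8 comparison. It shares 1229 exonic bases with Dimt1 on the other strand, where reads could not be counted for either gene. Levels of Kif2a in Lhx8 libraries were 315, 299 and 295 CPM in controls and at 189, 240 and 215 in knockouts, a log2 fold change of -0.50 ± 0.13 (edgeR adjusted p = 0.0392). That call was lost on leaving out any of 5 of the 6 Lhx8 samples, all but knockout replicate 2 (edgeR adjusted p from 0.0534 to 0.144). In the Figla set at P0 Kif2a was 123, 127 and 151 CPM in controls and 102, 110 and 108 in knockouts, which did not pass (edgeR adjusted p = 0.0651).

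The transport motors Kif1a, Kif1b and Kif1c, which carry synaptic vesicle precursors, mitochondria and other membranes, were slightly above their controls at P0 in the Figla set. Their log2 fold changes were 0.36, 0.20 and 0.24, and none passed. For Lhx8 they were -0.20, 0.14 and 0.15. Kif13a, Kif13b and Kif21b also passed in neither set.

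**Figure D4:**
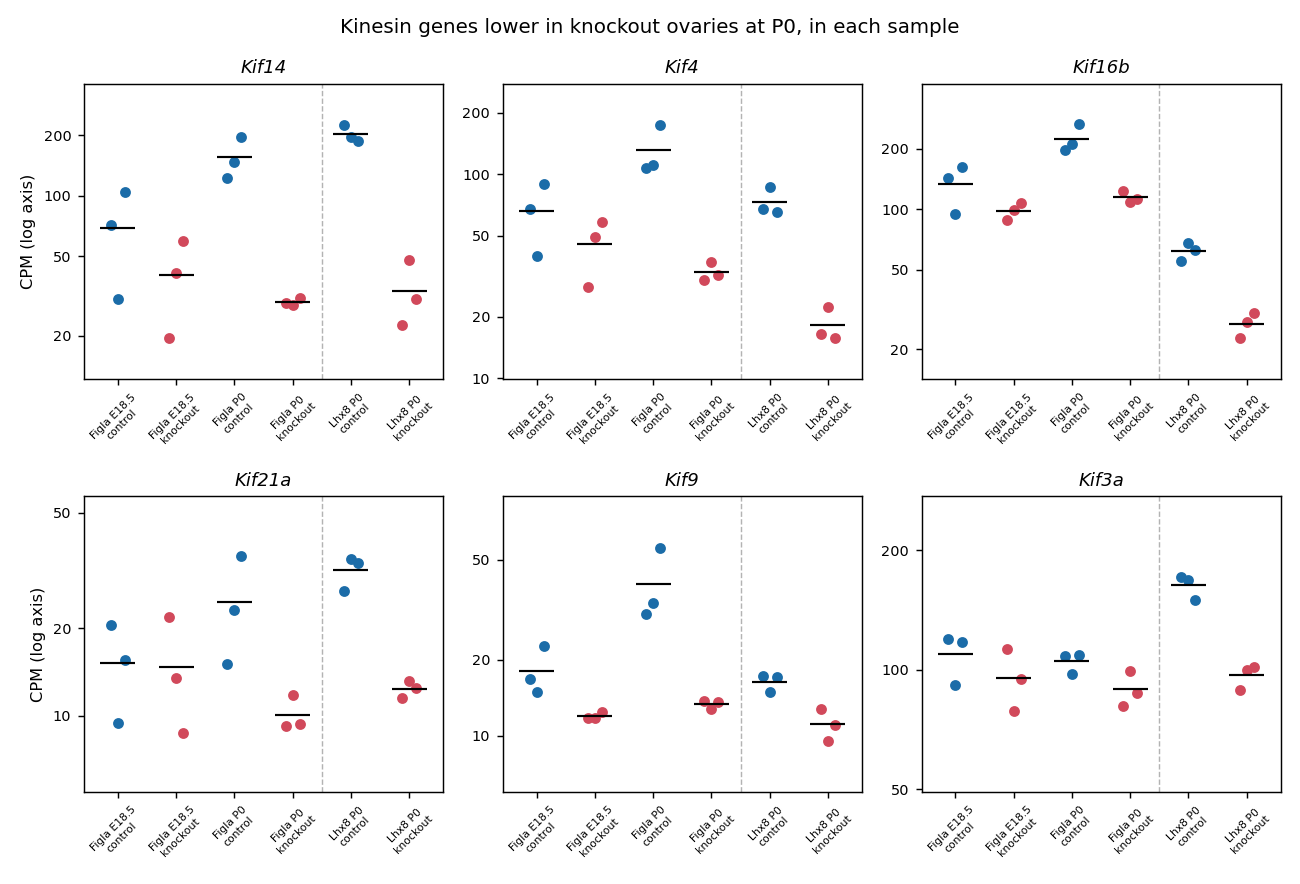
CPM (log axis) in each sample of 6 kinesin genes that passed as lower in at least 1 knockout at P0. Points are samples, black lines are group means, and the dashed line separates the library kits. Kif14 and Kif4 have the widest gaps, while Kif9 passes only in the Figla set and Kif3a only in the Lhx8 set.

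Among the 9 kinesins of cilia and flagella, Kif9 differed most. It is a kinesin-9 motor of motile cilia and the sperm flagellum. Figla controls at P0 were at 30.5, 33.8 and 55.7 CPM and knockouts at 13.8, 12.8 and 13.7. The log2 fold change was -1.58 ± 0.22 (edgeR adjusted p = 0.00076). Lhx8 libraries had Kif9 at 17.3, 14.9 and 17.1 CPM in controls and 12.7, 9.58 and 11 in knockouts. Those groups did not overlap, but the log2 fold change of -0.56 ± 0.20 did not pass (edgeR adjusted p = 0.101). The difference between the knockouts was not tested, since the sets were made with different kits.

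Kif7, which sits at the tip of primary cilia and tunes Hedgehog signalling, was higher in Figla knockouts at P0. It was at 16.6, 18.9 and 15.8 CPM in controls and 27.8, 26.7 and 26.7 in knockouts, a log2 fold change of 0.66 ± 0.13 (edgeR adjusted p = 0.0078). Across Lhx8 libraries Kif7 had 110 counts in all, and its log2 fold change of 0.35 ± 0.53 did not pass (edgeR adjusted p = 0.710). Kif7 shares 877 exonic bases with 9330171B17Rik and 51 with Ticrr, both on the other strand, where reads could not be counted for either gene. 9330171B17Rik had at most 0.875 CPM in any sample. Ticrr was lower in Figla knockouts at P0, by a log2 fold change of -0.62 ± 0.14 (edgeR adjusted p = 0.0117).

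Kif24, a kinesin-13 that holds back cilium assembly at the centriole, was at 46.7, 42.1 and 44.9 CPM in Figla controls at P0 and at 32.9, 33.2 and 33.3 in knockouts. Its log2 fold change of -0.42 ± 0.11 passed (edgeR adjusted p = 0.0253), but the call was lost on leaving out any sample other than control replicate 2 (edgeR adjusted p from 0.0637 to 0.107). Kif3a, whose protein pairs with that of Kif3b in kinesin-2, was lower in Lhx8 knockouts: 171, 169 and 150 CPM in controls against 88.9, 99.8 and 101 in knockouts. The log2 fold change was -0.75 ± 0.13 (edgeR adjusted p = 0.0049). In the Figla set Kif3a was at 108, 97.6 and 109 CPM in controls and 81.0, 99.2 and 87.3 in knockouts, which overlapped (edgeR adjusted p = 0.184). Kif3b differed by 0.14 in Figla and -0.18 in Lhx8 knockouts on the log2 scale and passed in neither. Kif6, Kif17, Kif19a and Kif27 passed in no comparison.

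Of 28 cilium assembly and Hedgehog genes, 4 were higher and 3 lower in Figla knockouts at P0, beside 5.12% and 10.9% of all genes, so the lower share was near the background. The median log2 fold change was 0.15. Higher were the Hedgehog genes Gli2 (0.67), Gli3 (0.53), Smo (0.45) and Sufu (0.44). Lower were Ptch1, the Hedgehog receptor (-0.73), Bbs4 of the BBSome (-1.17) and Ift27 of intraflagellar transport (-1.99). For Lhx8, Smo (0.73) and Tulp3 (1.00) were higher, and Bbs4 (-1.74) and Ift27 (-1.59) were lower, among 27 tested and beside 3.06% and 7.29% of all genes.

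In the group of less studied members, Kif26a, whose protein lacks a working ATPase, was higher in Figla knockouts at P0. It was at 28.0, 31.6 and 22.7 CPM in controls and 47.5, 37.7 and 40.5 in knockouts, a log2 fold change of 0.61 ± 0.15 (edgeR adjusted p = 0.0212). The call was lost without knockout replicate 1, knockout replicate 3 or control replicate 3 (edgeR adjusted p from 0.0550 to 0.0737). Levels of Kif26a in Lhx8 libraries were 23.9, 25.6 and 26.8 CPM in controls and 41.1, 34.4 and 33.3 in knockouts. The groups did not overlap, and the log2 fold change of 0.51 ± 0.15 came just short of the threshold (edgeR adjusted p = 0.0592). Kif26b was at -0.29 in Figla and -0.25 in Lhx8 knockouts on the log2 scale and passed in neither. Stromal markers, 6 of 9, were higher in Figla knockouts at P0, beside 5.12% of all genes. Their summed levels were 4715 to 5686 CPM in controls and 6600 to 7489 in knockouts. In the Lhx8 set 5 of 9 were higher, beside 3.06% of all genes, with sums of 3704 to 4201 and 5503 to 6336 CPM. Their part in the higher kinesin genes was not tested.

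The P0 comparisons of Figla and Lhx8 share no library, so their values can be set side by side. Of the 32 members other than Kif5a tested in both, 25 had the same sign (78.1%), beside 75.0% of 14185 genes, a share near that of the genes at large. Of these, 9 passed in Figla and 6 in Lhx8, and 4 passed in both, all in the same direction. These were Kif14, Kif4, Kif16b and Kif21a, a share of 4 of 9 and 4 of 6. Among all genes 949 passed in both, of 2499 and 1483, and 941 of them had the same sign.

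**Figure D5:**
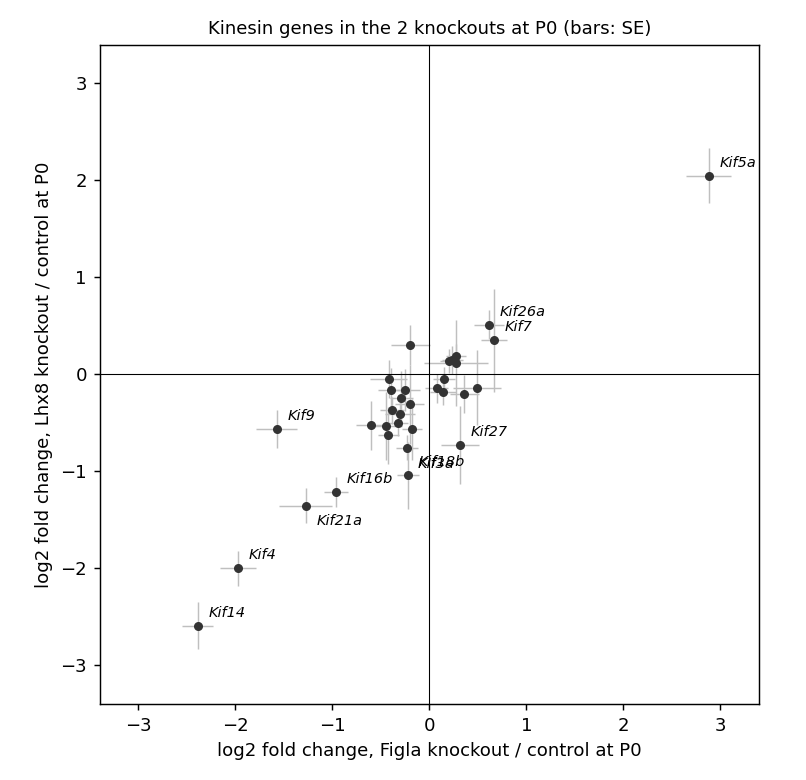
Log2 fold change in Figla knockouts (x axis) against that in Lhx8 knockouts (y axis) at P0 for the 33 kinesin genes tested in both sets; bars are SE. Kif5a stands alone at the upper right, at 2.88 and 2.05, and Kif14, Kif4, Kif21a and Kif16b lie at the lower left.

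At E18.5 no member passed (edgeR, 0 of 34), beside 1 of 16131 genes or 0.0062%. DESeq2 called 0 members and 78 genes. Figla itself did not pass in edgeR, at -3.91 ± 0.71 on the log2 scale, nor did Nobox, at -8.86 ± 1.62 (edgeR adjusted p = 0.411 for each). Figla was at 3.77 to 26.6 CPM in controls and 0.826 to 1.53 in knockouts. So not passing at E18.5 does not show that a gene was unchanged. At an unadjusted p under 0.05 there was 1 member, Kif9, and 3.76% of all genes. Groups did not overlap for 1 higher member, Kif17, beside 3.17% of genes, and for 2 lower ones, Kif9 and Kif27, beside 4.25%. Kif9 was at 16.8, 14.9 and 22.7 CPM in controls and 11.8, 11.8 and 12.4 in knockouts, with no overlap and a log2 fold change of -0.58 ± 0.20 (edgeR adjusted p = 1.00). Kif14 was at 71.4, 30.7 and 105 CPM in controls and at 19.5, 41.3 and 59.7 in knockouts. Control replicate 3 lay below 2 of the 3 knockouts, as it did for Kif4, at 39.9 CPM against 67.3 and 89.9 in the other controls and 28.1, 49.3 and 58.3 in knockouts. Without that library the log2 fold changes of Kif14 and Kif4 went from -0.77 to -1.11 and from -0.53 to -0.77, and neither passed (edgeR adjusted p = 0.820 and 0.869). No member passed without it, or without both samples numbered 3.

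Whether the knockout of Figla acted differently at the later age was tested directly, and 0 of 34 members passed (edgeR), beside 0.0% of 18379 genes. At an unadjusted p under 0.05 there were 7 members, with 5.32% of all genes: Kif14, Kif21a, Kif22, Kif27, Kif4, Kif7 and Kif9. DESeq2 gave 0 members and 3 genes. For Kif14 the effect was more negative at P0 by 1.59 ± 0.58 on the log2 scale, and for Kif4 by 1.42 ± 0.43 (edgeR adjusted p = 0.913 for each). For Kif5a it was more positive by 1.88 ± 0.54. So no member tested was shown to respond differently at birth.

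From E18.5 to P0 in controls no member passed in edgeR (0 of 34, beside 0.0% of 18379 genes), while 10 members and 23.1% of genes had an unadjusted p under 0.05. DESeq2 called 1616 genes, 1052 of them higher at P0. Among them were 6 members, all higher at P0: Kif14, Kif4, Kif16b, Kif9, Kif5c and Kif2a. Those 6 of 34 were also the members whose P0 controls all lay above their E18.5 controls, a share near the 14.9% of all genes. Kif23 was the 1 member whose P0 controls all lay below, beside 12.8%. The edgeR log2 differences were 1.16 ± 0.40 for Kif14, 1.14 ± 0.22 for Kif9, 0.99 ± 0.30 for Kif4 and 0.75 ± 0.18 for Kif16b. Kif5a was lower at P0 by value, at -0.69 ± 0.40, with overlapping groups. Age and any batch of the ages cannot be told apart.

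Summed markers of several other cell types were higher in Figla knockouts at P0, where Kif5a was higher, and the Lhx8 sums are given below. The part of these markers in the Kif5a result was not tested. Summed pregranulosa and granulosa markers were at 1944 to 2544 CPM in Figla controls and 2970 to 3225 in knockouts, with 2 of 11 tested genes higher. Endothelial markers summed to 294 to 429 CPM in controls and 482 to 567 in knockouts, with 4 of 8 higher. Macrophage markers summed to 53.0 to 58.3 CPM and 71.6 to 81.3, with 1 of 7 higher. For Lhx8, 1 pregranulosa, 0 endothelial and 1 macrophage gene passed as higher, and the stromal markers are given above. Beside these counts, 5.12% of all genes passed as higher for Figla and 3.06% for Lhx8. Lhx8 sums in controls and knockouts were 1109 to 1185 and 1376 to 1481 CPM for pregranulosa and granulosa markers. Macrophage sums were 64.2 to 79.2 and 89.8 to 118 CPM. Endothelial sums overlapped, at 480 to 523 and 506 to 596 CPM. Most neuron markers were not higher. Of 24 such genes 18 were tested in the Figla set at P0. There 1 was higher and 5 were lower, beside 5.12% and 10.9% of all genes, so the higher share was near the background. Their median log2 fold change was -0.15. The higher one was Elavl3, an RNA-binding protein gene of neurons, at 1.02, 0.567 and 1.48 CPM in controls and 2.64, 2.14 and 2.90 in knockouts. Snap25, a synapse gene, was at or under 0.378 CPM in every P0 sample of the Figla set, and Tubb3 was at 1.56 to 2.08 CPM in controls and 1.09 to 2.22 in knockouts. The list's summed level was 483 to 786 CPM in controls and 291 to 327 in knockouts, and 1 to 4 of its genes were at 0 in a sample. Th fell from 27.6, 38.8 and 69.8 CPM to at most 0.20, and Uchl1, Nefh, Chga and Ina were the other lower genes. Among E18.5 controls the list's sum was lowest in replicate 3, at 118 CPM, and so was that of the oocyte markers, at 327 CPM. Whether the sum follows neurons, oocytes or both was not tested. For Lhx8, none of 18 tested neuron markers was higher, and Th was the 1 that was lower (-8.06 ± 0.27), beside 3.06% and 7.29% of all genes. The list's sums were 825 to 901 CPM in controls and 453 to 764 in knockouts.

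Kinesin light chains, cargo adaptors and partners mostly did not pass. Of 18 tested in the Figla set at P0 none was higher, and Klc3 (-1.23 ± 0.31) and Klc2 (-0.35 ± 0.10), both light chains that bind kinesin-1 heavy chains, were lower. Over all genes 5.12% were higher and 10.9% lower, so the lower share was near the background. None of 17 passed in the Lhx8 set, beside 10.4% of all genes. Of 6 kinesins with other names, 2 were lower and 1 higher in Figla knockouts, beside 10.9% and 5.12% of all genes. Lower were Kifc1 (-1.09) and its relative Kifc5b (-0.85), motors that walk towards microtubule minus ends, and Stard9 (0.42) was higher. In Lhx8 knockouts 0 of 5 tested were higher and 1 was lower, beside 3.06% and 7.29% of all genes. The lower one was Cenpe, the kinetochore kinesin (-0.65). Kifc1 and Kifc5b are closely similar copies, so how reads were split between them is uncertain.

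Dynein and dynactin, which move cargo the other way along microtubules, had 1 higher and 4 lower genes of 18 in Figla knockouts at P0, beside 5.12% and 10.9% of all genes. The share of higher genes was that of the background. Dync1i1, a dynein intermediate chain best known from neurons, was the higher one. It was at 16.5, 23.0 and 10.6 CPM in controls and at 36.7, 38.8 and 32.8 in knockouts, a log2 fold change of 1.12 ± 0.23 (edgeR adjusted p = 0.0088). Lhx8 libraries had Dync1i1 at 16.9, 13.1 and 16.5 CPM in controls and 38.8, 29.4 and 42.7 in knockouts, 1.25 ± 0.19 on the log2 scale (edgeR adjusted p = 0.0028). Dynlrb1, Dctn3, Dynll1 and Dync1li1 were lower in the Figla set, by -0.68 to -0.41, and Dctn3 and Dynll1 were also lower in the Lhx8 set.

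The genes with the highest Pearson correlation with Kif5a over the 12 Figla-set samples were F730043M19Rik, Rab36, Crtac1, Lef1 and Eno3. Pearson's r of their log2 CPM with Kif5a was 0.995, 0.979, 0.964, 0.961 and 0.952, the highest among 18379 genes. By Spearman's rho they ranked 1, 7, 3, 55 and 50, so only 2 of the 5 were among the top 5 by both measures. The 12 samples fall in 4 groups, so these values mostly describe the difference between groups. Lef1, a transcription factor gene of Wnt signalling, was at 25.7, 20.2 and 17.9 CPM in Figla controls at P0 and 109, 95.6 and 97.5 in knockouts. Eno3 encodes the muscle form of enolase, and Rab36 a small GTPase. In the Lhx8 set, which took no part in the choice, the log2 fold changes were 0.98 ± 0.45 for F730043M19Rik, 0.63 ± 0.16 for Rab36, 0.07 ± 0.42 for Crtac1, 0.98 ± 0.19 for Lef1 and 2.21 ± 0.17 for Eno3. Rab36, Lef1 and Eno3 passed there (edgeR adjusted p = 0.0342, 0.0099 and 5.0e-05), beside 3.06% of all genes higher. All 5 had also passed as higher in Figla knockouts at P0. Of the 2499 genes that passed in Figla and were tested in both sets, 949 passed in Lhx8 too.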

How the data were processed

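Gene counts were deposited by the authors, 1 table per library; per the file headers, featureCounts 1.6.0 made them on GENCODE M12 with strand ignored, without the options that count multi-mapped or overlapping reads. The submitters' processing notes name cutadapt, HISAT2 and GRCm38.p5; for cutadapt and HISAT2 the version was not given in those sources. Figla libraries were made with a Nextera kit and Lhx8 libraries with a QuantSeq 3′ kit, per the labels' protocols, so levels were not compared across sets. Symbols came from a name table that matched 49326 of 49585 gene IDs.

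Counts were tested with edgeR 4.0.16 (R 4.3.3): filterByExpr (minimum count 10, minimum total 15), TMM scaling, the quasi-likelihood test, and Benjamini-Hochberg adjustment over all genes tested. Each comparison used its own groups; age and the difference of effects used 1 model of the Figla set. CPM used TMM-scaled library sizes, and log2 CPM for likeness a prior count of 2. The test was also run on counts simulated from spreads it had fitted to these data. Such counts cannot check the labels, the pairing or E18.5 control replicate 3. Alternatives were RLE scaling, no filter, DESeq2 1.42.0, each sample left out, each library as its own sample, 1 model for all Figla-set samples, libraries with agreeing labels, and a replicate block.

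The members and the gene lists were chosen with earlier results of these data known. Values in every sample were given for the kinesin-1 genes and each member past the threshold in a knockout comparison; likeness to Kif5a names the 5 genes of highest Pearson correlation. A few others were named after their values were seen. Results of 1 marker list are not reported here. Figla replicate numbers follow accession order and were used only as names, so the samples were not paired by them. Same-numbered Figla samples did deviate together, and results with a replicate block are given below. Lhx8 numbers come from the library names, but same-numbered samples did not deviate together, so they were not paired.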

Additional observations from a re-analysis of the deposited data

How the results depend on the processing

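No value that passed in the main test or in an alternative changed sign between them. Among log2 fold changes that passed in neither, 21 values of 10 results had the other sign, such as Kif21a, Kif26a, Kif24 and Kif3c at E18.5. Kinesin counts here leave out Kif5a. At E18.5 edgeR called 1 gene. It called 229 with no filter, 34 with libraries kept unsummed, 53 in 1 model of all Figla-set samples, and 18 without both samples numbered 3, an alternative chosen after seeing the data. DESeq2 called 78. Leaving out 1 sample gave 0 (without knockout replicate 3) to 89 (without control replicate 3). No kinesin gene passed in any of these. For Figla at P0, 2767 genes and 10 kinesin genes became 1363 and 5 in 1 model, 1835 and 4 with only libraries whose labels agree, and 1423 to 2882 and 5 to 10 without 1 sample. For Lhx8, 1582 genes became 2682 with no filter and 630 to 1490 without 1 sample, with 5 to 6 kinesin genes. For age in controls, 0 genes and 0 kinesin genes became 1252 and 4 with no filter, 1616 and 6 with DESeq2, 1490 and 4 with libraries kept unsummed, and 0 to 556 and 0 to 2 without 1 sample. For the difference of the Figla effects, 0 became 63 genes and 2 kinesin genes with no filter, and 3 genes and 0 kinesin genes with DESeq2. The cause of these shifts was not tested.

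Replicate numbers did not pair the samples by the labels. A replicate block gave 28 genes at E18.5, 4680 genes and 16 kinesin genes for Figla at P0, and 931 genes for Lhx8. With it Kif5b and Kif2a passed for Figla at P0 (edgeR adjusted p = 0.0422 and 0.0270), and Kif2a no longer passed for Lhx8 (0.0951). Same-numbered Figla samples correlated at 0.26 to 0.57 at E18.5 and 0.29 to 0.39 at P0, each best with its own number, a hint from the data and not the design. The Lhx8 correlations were -0.15 to 0.05.

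Kif14, Kif4, Kif16b and Kif9 passed in all 12 alternatives for Figla at P0, and Kif14, Kif4, Kif16b, Kif21a and Kif3a in all 10 for Lhx8. With only libraries whose labels agree, 4 kinesin genes passed for Figla at P0, 0 higher and 4 lower. Those no longer passing in edgeR were Kif21a (adjusted p = 0.0679), Kif7 (0.0516), Kif24 (0.0846), Kif26a (0.121), Kif3c and Kif5c. Depth limits the Lhx8 values of Kif7, Kif17 and Kif27, with 110 to 178 counts each.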
